A study of Mus musculus with 2 samples.

Results

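Interferon-stimulated genes were followed in single EYFP+ cells of the adult mouse dentate gyrus (DG). The 9 genes Ifitm3, Isg15, Ifit2, Ifit3, Irf7, Oasl2, Bst2, Ifi27l2a and Usp18 were taken by symbol, and all 9 were found among the 32285 genes of each of the 12 deposited clusters. The study asked how vascular endothelial growth factor (VEGF) made by neural stem and progenitor cells acts in the DG. It sequenced 1 library of NestinCreERT2;VEGFWT/WT;ROSA-STOP-EYFP mice (WT) and 1 of NestinCreERT2;VEGFfloxed;ROSA-STOP-EYFP mice (labelled KO, an inducible knockdown). Each library pooled the DGs of 5 littermates of 7 to 10 wk, all given tamoxifen, and cells were sorted 21 d later. Tamoxifen activates Cre in Nestin-expressing cells of both genotypes, so WT and KO mice share the Cre, the reporter and the drug, and differ in the floxed Vegfa alleles.

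Type I interferons bind the receptor IFNAR1/IFNAR2, and the kinases JAK1 and TYK2 then activate a transcription factor complex that contains STAT2 and IRF9 and binds interferon-stimulated response elements (ISREs) in target promoters. The products of these targets block viral entry, translation and release, and others tune the response itself. In brain, microglia, the resident macrophages, are known to carry such a programme in a small share of cells.

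The data comprised 5543 WT and 5261 KO cells, with medians of 8051 and 7080 unique molecular identifiers (UMIs) per cell. Since each genotype has 1 library and cells of a pool are not replicates, no test between genotypes was made. Intervals are 95% intervals, exact Poisson or exact binomial, and cover counting error only. Where a gene had no UMI, the limit given is 3 counts, or 3 counts over the number of cells. Such a limit is an approximate 1-sided bound and is tighter than the exact interval. A level is the mean over cells of counts per 10,000 UMIs, and a share is the percent of cells with at least 1 UMI. Sequences of 9 cell barcodes occurred in both libraries. Of the deposited cells, 496 had fewer than 2000 detected genes, under the lower limit that the methods state. Vegfa, the targeted gene, had 111 UMIs in WT and 62 in KO cells, a log2 KO/WT ratio of −0.41 (−0.88 to 0.05). Tags of Vegfa may lie outside the floxed part, so this does not check the label.

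The clusters carry the authors' names of stages of neurogenesis, and these names were checked against markers. The cluster named aNSC, in which the 9 genes were highest, held 305 cells, 2.82% of all (2.52 to 3.15). All 10 microglial markers were detected there, in 82.3% (Sall1) to 100% of cells, with a summed level of 393. They were also in a median of 98.9% of the cells of the other 11 clusters, with a summed level of 387, so most cells of the series carried them. Of 9 neural stem cell markers, Gfap, Fabp7, Sox9 and Pax6 had no UMI in it, which for 305 cells allows a share of up to 0.984%, and the other 5 were found in at most 3.28% of cells. The markers thus go against the name, and the cluster is called by the authors' name below only as a label. In the aNSC cluster none of the 4 T and NK cell markers was detected, and border macrophage markers reached a summed level of 0.121. The 4 monocyte markers went different ways. Plac8 was found in 9.51% of aNSC cells against 0.514% elsewhere. Ccr2 was in 0.328% against 1.6%, S100a4 in 0.328% against 0.81%, and Ly6c2 had no UMI in aNSC cells. Whether monocytes or border macrophages have a part in the results was not tested. The cluster named Astrocytes (4 WT and 130 KO cells) had a summed choroid plexus marker level of 1081 against 80.9 for the microglial markers.

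Promoters were searched for the element through which this programme is known to act. RefSeq promoter windows (GRCm38.p6, from 250 bases before to 50 bases after the annotated start) were matched for 7 of the 9 genes. The ISRE core was searched on both strands as GAAA, any 2 bases and GAAA again. It was present in 4 of these 7 (Ifitm3, Isg15, Ifit3 and Bst2). Of 27025 genes with a window 3.99% had it, as did 3.44% of 32851 windows of the same length. The longer form, in which CT follows the second GAAA, was present in Ifitm3, Ifit3 and Bst2. It was in 0.303% of genes and 0.271% of windows. Another motif searched, TTCNNNGAA (N, any base), was present in Ifitm3, Ifit2 and Bst2, and in 9.55% of genes. The 4 windows with a core are printed 5′ to 3′ on the gene's strand, with every core in capitals. Overlapping cores form 1 run, and in Ifit3 the capitals read on the other strand. They lie at chr7:141010695-141010994 (minus strand), chr4:156200769-156201068 (minus), chr19:34583279-34583578 (plus) and chr8:71537423-71537722 (minus).
Ifitm3: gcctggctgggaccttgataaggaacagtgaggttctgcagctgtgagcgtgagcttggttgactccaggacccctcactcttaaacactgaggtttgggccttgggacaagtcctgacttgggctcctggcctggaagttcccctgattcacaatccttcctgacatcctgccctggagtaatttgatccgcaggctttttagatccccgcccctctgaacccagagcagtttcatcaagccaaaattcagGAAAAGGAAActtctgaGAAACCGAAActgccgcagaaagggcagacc
Isg15: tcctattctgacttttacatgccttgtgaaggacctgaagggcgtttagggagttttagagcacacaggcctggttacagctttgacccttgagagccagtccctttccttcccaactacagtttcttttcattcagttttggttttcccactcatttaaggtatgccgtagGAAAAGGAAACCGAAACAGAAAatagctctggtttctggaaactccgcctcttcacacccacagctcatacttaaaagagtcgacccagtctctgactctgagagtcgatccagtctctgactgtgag
Ifit3: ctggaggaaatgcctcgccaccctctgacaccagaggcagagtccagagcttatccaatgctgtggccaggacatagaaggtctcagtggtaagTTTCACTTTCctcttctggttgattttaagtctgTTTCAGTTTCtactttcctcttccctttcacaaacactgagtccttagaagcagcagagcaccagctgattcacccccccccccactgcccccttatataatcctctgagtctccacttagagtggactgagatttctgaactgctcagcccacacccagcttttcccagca
Bst2: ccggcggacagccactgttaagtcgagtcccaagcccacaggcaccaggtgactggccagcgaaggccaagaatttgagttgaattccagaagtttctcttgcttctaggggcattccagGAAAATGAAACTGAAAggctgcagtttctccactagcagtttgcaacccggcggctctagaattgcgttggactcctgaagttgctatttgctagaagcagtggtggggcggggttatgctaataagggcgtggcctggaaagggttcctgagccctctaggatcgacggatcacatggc

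In Isg15 the 3 cores overlap, starting 78, 72 and 66 bases before the start. In Bst2 2 cores overlap, starting 130 and 124 bases before it. Ifitm3 has 2 cores that begin 2 and 19 bases after the annotated start, and those of Ifit3 lie 156 and 122 bases before it. The windows of Ifit2, Irf7 and Oasl2 held no core. A match describes letters in the window and is no measurement of binding.

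In GENCODE M21 (GRCm38), the gene bodies of Ifit2 (chr19:34550694-34576419) and Ifit3 (chr19:34583531-34588731) are neighbours on the plus strand. Ifitm3 (chr7:141009586-141010770) and Irf7 (chr7:141262706-141266481) lie on the minus strand of chromosome 7. The others are Isg15 (chr4:156199424-156200818), Oasl2 (chr5:114896936-114912234), Usp18 (chr6:121245906-121270917), Bst2 (chr8:71534255-71537456) and Ifi27l2a (chr12:103442167-103443680). None of the 9 overlaps another gene on its strand.

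All 9 genes had their highest level in the aNSC cluster. Against the other 11 clusters together, all 9 were at least 4-fold higher there, where 1.15% of 10415 genes were. A gene entered this count if it reached a level of 0.05 in the aNSC cluster or elsewhere. Of the 9, 5 (Ifit2, Ifit3, Irf7, Oasl2 and Usp18) reached this minimum only in the aNSC cluster, which favours such calls. The clusters were made from these same cells, so these values describe the cluster and are no test. The share of a gene's UMIs that fell in the 305 cells ran from 20.4% (Bst2) to 84.7% (Ifit2).

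The antiviral effectors come first. Ifitm3, a membrane protein that blocks fusion of entering viruses, had a level of 5.47 in aNSC cells, with 1347 UMIs in 69.2% of cells (63.7 to 74.3), against 0.0639 and 3.08% in the other 11 clusters. Ifit2 and Ifit3, which belong to a family that binds foreign RNA and hinders its translation, had levels of 2.83 and 3.47. Their shares were 56.1% and 67.9% of aNSC cells and 1.09% and 1.49% of others. Oasl2, an oligoadenylate synthetase-like protein, had a level of 1.79 against 0.0124, in 54.8% of aNSC cells and 0.781% of others. For these 4 genes detection outside the cluster was rare. Bst2 (tetherin), which holds budding virions at the cell surface, was in 94.8% of aNSC cells and in 46.9% of others, at levels of 7.56 and 0.918. Bst2 was thus detected widely, and the contrast was 8.24-fold, the smallest of the 9.

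The regulators of the response were likewise highest in the aNSC cluster. Irf7, the transcription factor that amplifies interferon production, had a level of 1.48 in 56.7% of aNSC cells, against 0.0195 and 1.32%. Isg15, a ubiquitin-like modifier, had a level of 4.16 in 66.9% of cells, against 0.0681 and 4.51%. Usp18, which removes ISG15 from proteins and damps the receptor, had a level of 1.42 in 57.7% of cells, against 0.0233 and 1.55%. Ifi27l2a, a small interferon-inducible membrane protein, had a level of 1.99 in 44.3% of cells, the lowest share of the 9, against 0.0895 and 3.80%.

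**Figure D1:**
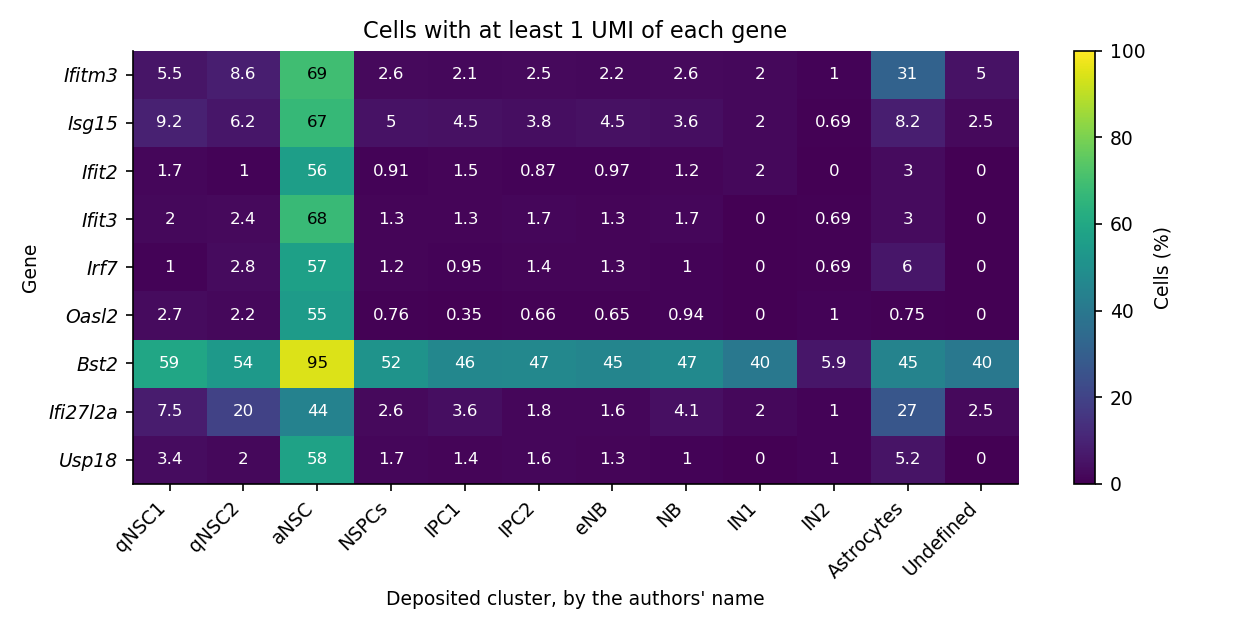
Percent of cells with at least 1 UMI of each of the 9 genes (rows) in each of the 12 deposited clusters (columns, authors' names), coloured and printed from 0 to 100%. The aNSC column holds the highest share in every row, and Bst2 is the only row with shares of 40% or more in most clusters.

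The next cluster in level differed between genes. The Astrocytes-named cluster was second for 6 genes (Ifitm3, Isg15, Ifit2, Ifit3, Irf7 and Usp18), the Undefined cluster for Bst2 and Ifi27l2a, and IN2 for Oasl2. The Undefined and IN2 values rest on few UMIs, 31 for Bst2, 8 for Ifi27l2a and 4 for Oasl2, in cells with medians of 2572.5 and 3102.5 UMIs. In the Astrocytes-named cluster, Ifitm3 was in 31.3% of 134 cells (23.6 to 39.9) and Ifi27l2a in 26.9% (19.6 to 35.2). Ifi27l2a was also in 19.9% of the 502 cells of qNSC2 (16.5 to 23.7).

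In the 5 largest clusters (NSPCs, IPC1, IPC2, eNB and NB) no gene but Bst2 was found in more than 5% of cells. Shares ran from 2.09% to 2.61% for Ifitm3, from 3.65% to 4.96% for Isg15, and from 0.349% to 0.938% for Oasl2. The Astrocytes-named cluster had higher shares than each of these 5 for Ifitm3, Isg15, Ifit2, Ifit3, Irf7 and Usp18 at a median depth of 7722 UMIs. For Ifit2 and Ifit3 these were 4 cells each, 2.99% (0.819 to 7.47), an interval that holds the shares of the 5 clusters. Ttr, a choroid plexus transcript, was found in 12.2% of WT and 99.1% of KO aNSC cells. In the other 11 clusters it was in 9.80% of WT and 99.8% of KO cells. Whether RNA from outside the cells gave these values was not tested. No order is read among the 5 largest clusters. Bst2 shares there were 45.4% to 51.5%. In IN1, Ifit3, Irf7, Oasl2 and Usp18 had no UMI in 50 cells, which allows a share of up to 6%.

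Within the aNSC cluster the genes varied strongly from cell to cell. The median cell had 2 UMIs of Ifitm3 and of Isg15, 4 of Bst2 and 0 of Ifi27l2a, and the highest cells had 37, 41, 45 and 30. For Ifit2 the median was 1 UMI and the maximum 74. The tenth of cells with the most UMIs held from 32.7% of the UMIs (Bst2) to 59.7% (Ifi27l2a), with 56.9% for Ifit2 and 52.7% for Ifit3.

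The genes were detected together in the same cells. Of the 305 aNSC cells, 26 had UMIs of all 9 genes and none had 0, and the median was 6. At least 3 of the 9 were found in 287 aNSC cells, 94.1% (90.8 to 96.5), and in 170 of 10499 other cells, 1.62% (1.39 to 1.88). With cells thinned to 4500 UMIs and shallower cells left out, these shares were 76.8% of 298 and 0.678% of 9886 cells. At least 5 were found in 214 cells of the series, of which 204, or 95.3% (91.6 to 97.7), lay in the aNSC cluster. The 10 others were spread over 8 clusters. In the other clusters 46.5% of cells had none of the 9 and 44.6% had 1.

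**Figure D2:**
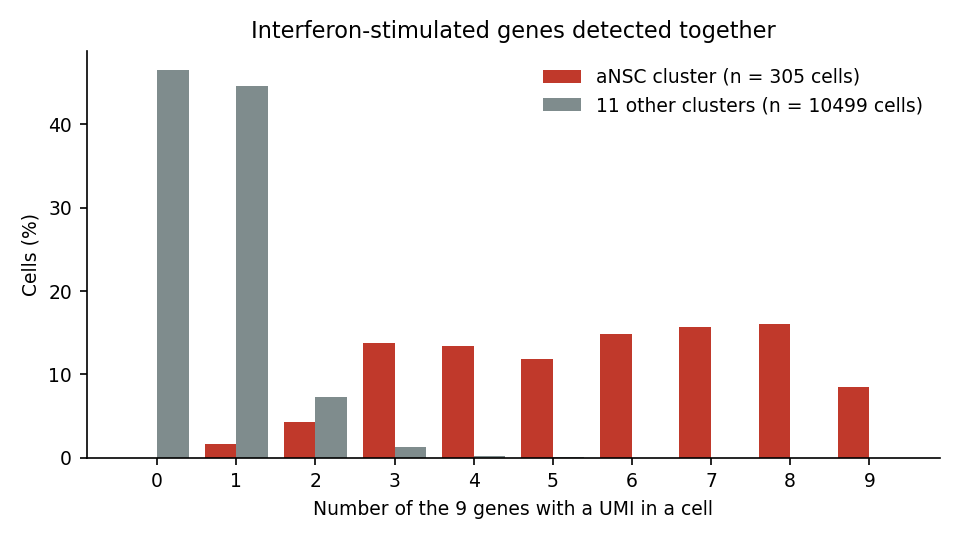
Percent of cells (y axis) by the number of the 9 genes with a UMI (x axis), for 305 aNSC cells and 10499 cells of the other clusters. The aNSC cells spread from 1 to 9 genes with a median of 6, and the other cells lie mostly at 0 and 1.

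Detection of a gene went with detection of the others in most pairs. Over the 72 ordered pairs in aNSC cells, the partner was found in 42.2% to 97% of cells with the first gene, with a median of 67%. The share was higher than in cells without the first gene in 68 of 72 pairs. In the other clusters the median was 5.04%, and the share was likewise higher with the first gene in 68 of 72 pairs. The level of the pair correlated across the 305 cells with Spearman's rho from 0.04 (Irf7 and Ifi27l2a) to 0.66 (Ifitm3 and Bst2), with a median of 0.35 over 36 pairs. These values are descriptions, as all cells share 2 libraries and depth moves with each gene's counts. Ifi27l2a gave the weakest pairs. Ifi27l2a was in 42.2% of cells with Irf7 and in 47% of cells without it.

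Other genes of the pathway were read from lists chosen with earlier results of these data known. Of 36 matched further type I interferon-stimulated genes, 35 reached a level of 0.05 in the aNSC cluster or elsewhere. Of these, 35 were at least 2-fold higher in aNSC cells, where 2.21% of all genes were, and 30 were at least 4-fold higher. This minimum favours such genes, since 17 of the 35 reached it only in the aNSC cluster. The matched gene under it was Ifitm2, at 0.0362 against 0.0245. Rtp4, an interferon-induced chaperone of membrane receptors, had a level of 3.05 against 0.0986. Trim30a had 6.95 against 1.13, and Slfn5 had 2.36 against 0.0215. Oas3 had 12 UMIs, all in aNSC cells.

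The signalling chain split between its components. Ifnar1 (0.453 against 0.484), Ifnar2 (2.98 against 2.77), Jak1 (2.56 against 2.58) and Tyk2 (0.352 against 0.346) had similar levels in aNSC and other cells. Stat2 had 1.74 against 0.187 and Irf9 0.915 against 0.336. Both encode components of the complex that binds the ISRE. No UMI of the 7 type I ligands (Ifnb1, Ifna1, Ifna2, Ifna4, Ifna5, Ifne and Ifnk) or of Ifng was found in any of 10804 cells, a limit of 3 counts for each gene. Of the 11 measured sensors and adaptors, 4 were at least 4-fold higher: Ddx58, Ifih1, Dhx58 and Zbp1. Zbp1, a sensor of Z-form nucleic acid, was in 37.7% of aNSC cells and 0.276% of others. Tlr3 (1.23 against 0.723) and Cgas (0.671 against 0.415) were higher by less. Tlr7 (2.94 against 2.68), Tmem173 (2.53 against 2.35) and Irf3 (0.425 against 0.408) had similar levels. Tbk1 had 0.797 against 1.0 and Mavs 0.189 against 0.219. In the ISG15 conjugation machinery, Ube2l6, Herc6 and Trim25 were at least 4-fold higher, and Uba7 had 0.388 against 0.199.

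**Figure D3:**
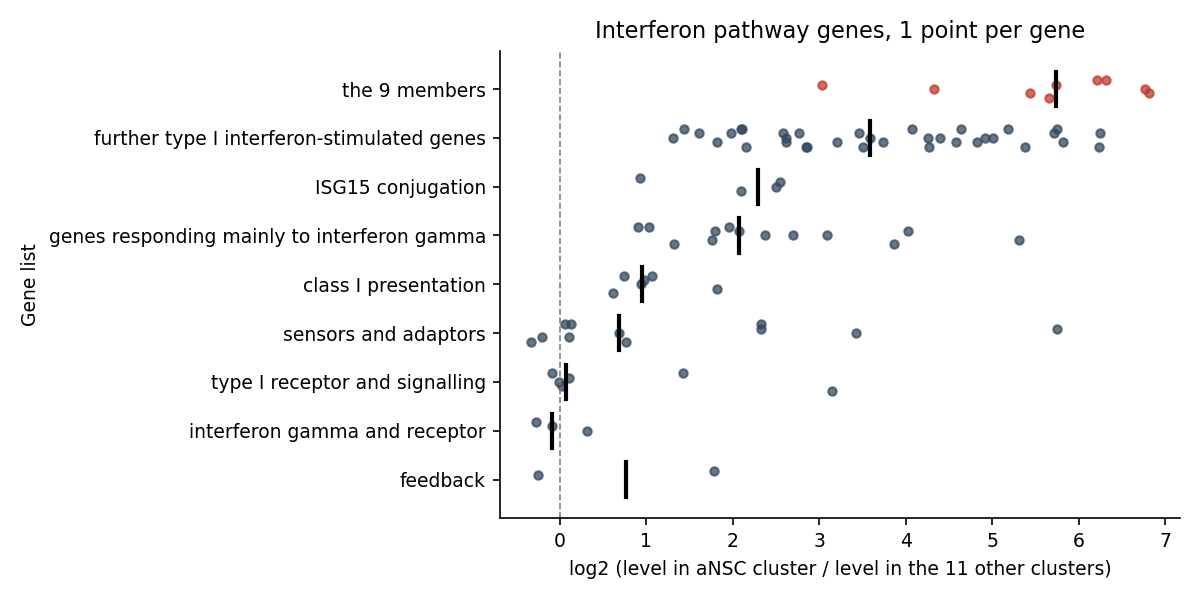
log2 ratio of the level in the aNSC cluster over the other 11 clusters (x axis, pseudocount 0.01) for each gene (points) of 9 gene lists (rows), with the median as a bar. Medians were 5.74 for the 9 genes and 3.58 for the 35 further interferon-stimulated genes, and 0.07 for the 6 receptor and signalling genes shown, where Stat2 and Irf9 lie apart to the right.

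The 10 genes whose pattern over 21 cluster and genotype groups was most like the mean of the 9, of 3809 candidates, were Slfn5, Ifit3b, Ifit1, Zbp1, Ifi206, Ifi207, Irgm1, Xaf1, Ifi209 and Fgl2. Pearson's r ran from 0.96 (Slfn5) to 0.88 (Fgl2). Candidates had to reach a minimum level of 0.5. In the aNSC cluster the 10 genes had levels of 0.581 (Ifi206) to 2.36 (Slfn5). Over the other clusters together they had 0.00193 (Ifit3b) to 0.241 (Irgm1), under that minimum. The minimum can thus favour genes that are high where the 9 are high, and the list and r depend on it. The 21 groups share 2 libraries, so r is a description. Ifit3b shares 97.8% identity over 1700 bases of the 1745-base Ifit3 transcript, so reads of these genes could be split between them and both values are uncertain.

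KO and WT were compared next, first within the aNSC cluster. It held 197 WT and 108 KO cells, with median depths of 8341 and 7537 UMIs. Of the 9 genes, 8 had a lower level in KO, where 47.3% of 10522 genes did. At least 1.25-fold lower were 4 of 9, against 19.3% of genes. Of the 35 further type I interferon-stimulated genes, 20 were lower in KO and 15 higher, with a median log2 KO/WT ratio of −0.05. Ifitm3 had a level of 6.02 in WT and 4.45 in KO, a log2 KO/WT ratio of −0.44 (−0.62 to −0.26). Ifit3 had 3.80 and 2.85, a ratio of −0.42 (−0.64 to −0.20), and Isg15 had 4.49 and 3.56, a ratio of −0.34 (−0.53 to −0.14). Bst2 had 8.10 and 6.57, and Ifi27l2a 2.18 and 1.65. Of the 9, these 5 are the genes whose intervals lay below 0. Smaller gaps were seen for Ifit2 (2.94 and 2.64), Irf7 (1.55 and 1.35) and Usp18 (1.52 and 1.25), whose intervals included 0. Oasl2 had 1.78 and 1.80, a ratio of 0.02 (−0.28 to 0.32). For the 9 summed, the level was 32.4 in WT and 26.1 in KO, a ratio of −0.31 (−0.38 to −0.24). The scored cells were 78.5% male in WT and 5.88% male in KO. With equal weight of female and male cells, an alternative chosen after seeing the data, the ratio was −0.06. This weighting lets 6 KO male cells count as much as 96 KO female cells. Whether sex has a part in the ratio was not tested. By share, Ifitm3 was in 75.1% of WT and 58.3% of KO cells, and Bst2 in 94.4% and 95.4%. Counts of a cell are not independent, and with 1 pool per genotype this difference cannot be told apart from a difference between the pools.

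Over all cells, all 9 genes were lower in KO, where 47.4% of 10292 genes were, and 7 of 9 were at least 1.25-fold lower, where 1.74% were. Irf7, Oasl2 and Usp18 reached the minimum level of 0.05 for these counts only in WT, which favours such calls. At the minimum of 0.1 used first, 6 members passed. Of these, 4 were at least 1.25-fold lower, where 1.12% of genes were. The summed level was 2.31 in WT and 1.78 in KO, a log2 ratio of −0.38 (−0.42 to −0.33). Bst2 gave 5145 of the 10283 WT UMIs in this sum, and without it the ratio was −0.64 (−0.71 to −0.58). In the other 11 clusters the summed ratio was 0.08 (0.02 to 0.14), and it was 0.02 (−0.04 to 0.08) with the Astrocytes-named cluster also left out. Single clusters differed. In IN2 the summed level was 0.822 in WT and 0.0431 in KO, from 54 and 3 UMIs, a ratio of −3.97 (−6.29 to −2.35). In NSPCs it was −0.05 (−0.18 to 0.08), and −0.32 (−0.62 to −0.02) without Bst2. In qNSC1 the level was higher in KO, with a ratio of 0.43 (0.15 to 0.71). The aNSC cluster held 3.55% of WT cells (3.08 to 4.08) and 2.05% of KO cells (1.69 to 2.47). Of the 9, Ifitm3 had the highest ratio in the other clusters, 0.54 (0.28 to 0.81), with levels of 0.0504 and 0.0778. The Astrocytes-named cluster, with 130 of its 134 cells in KO, held 78 of the 495 Ifitm3 UMIs of those clusters, and without it the ratio was 0.19 (−0.09 to 0.48). Whether choroid plexus RNA from outside the cells has a part in the KO/WT ratios was not tested.

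The sex of the cells, scored from UMIs of Xist and of 4 Y-linked genes, went with these ratios. Female and male cells were 62.1% and 37.9% of scored WT cells and 76.6% and 23.4% of scored KO cells. In the aNSC cluster 78.5% of scored WT cells were male, and 5.88% of scored KO cells (6 of 102) were. Its share of WT cells was 7.19% in males (6.08 to 8.44) and 1.20% in females (0.850 to 1.64). In KO it was 0.537% in males (0.197 to 1.17) and 2.63% in females (2.14 to 3.20).

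The direction differed by sex. In female cells all 9 genes were higher in KO, where 54.1% of 10218 genes were. The summed level was 1.40 in WT and 1.85 in KO, a log2 ratio of 0.40 (0.34 to 0.46). Per gene it ran from 0.18 (Bst2) to 0.99 (Ifitm3), with a median of 0.65, and 7 genes were at least 1.25-fold higher, where 2.29% of genes were. Ifit2, Irf7, Oasl2 and Usp18 reached the minimum level of 0.05 only in KO, which favours such calls. At a minimum of 0.1, 4 members passed, and 2 were at least 1.25-fold higher, where 1.37% of genes were. For Ifitm3 the female level was 0.0818 in WT and 0.173 in KO, and for Oasl2 0.0268 and 0.0569. In male cells all 9 were lower in KO, where 46.6% of 10271 genes were. The summed level was 3.54 in WT and 1.37 in KO, a ratio of −1.36 (−1.46 to −1.27), or −2.30 (−2.46 to −2.13) without Bst2. Per gene it ran from −2.74 (Oasl2) to −0.60 (Bst2), with a median of −2.05, and all 9 were at least 1.25-fold lower, where 5.53% of genes were. Ifit2, Ifit3, Irf7, Oasl2 and Usp18 reached the minimum of 0.05 only in WT. At 0.1 all 9 passed and all 9 were at least 1.25-fold lower, where 4.18% of genes were. For Ifitm3 the male level was 0.520 in WT and 0.118 in KO, and for Oasl2 0.149 and 0.0138. Over all cells the genes thus went in opposite directions in the 2 sexes, and this difference was not tested. In the other 11 clusters the directions were not opposite. There the summed ratio was 0.09 (0.02 to 0.17) in female and 0.06 (−0.05 to 0.18) in male cells, and 8 and 7 of the 9 genes were higher in KO. Within the aNSC cluster, the summed ratio was 0.20 (0.07 to 0.33) in 38 WT and 96 KO female cells, and −0.26 (−0.55 to 0.01) in 139 WT and 6 KO male cells. Of the 9 genes, Ifit3 and Ifi27l2a were lower in KO among female aNSC cells and the other 7 were higher.

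**Figure D4:**
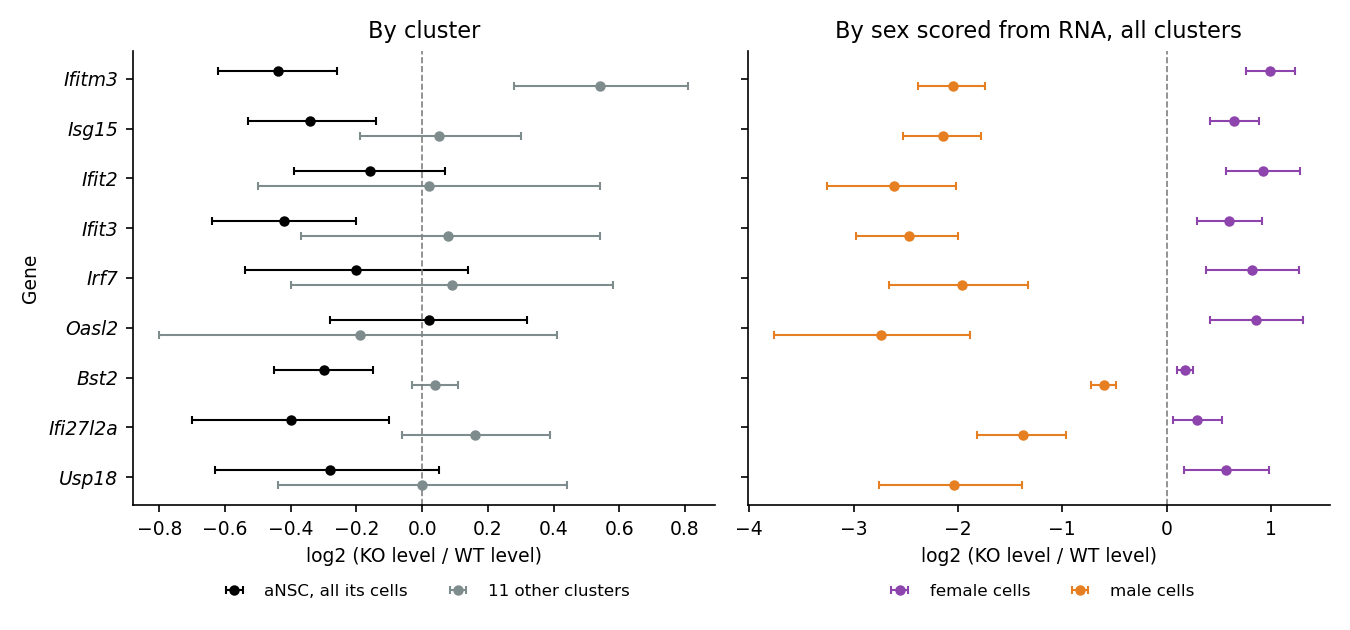
log2 ratio of KO over WT level (x axis) for each of the 9 genes (y axis), in the aNSC cluster and the other 11 clusters (left) and in female and male cells of all clusters (right). Points are ratios and bars are 95% counting intervals. All 9 female ratios are above 0 and all 9 male ratios below.

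Detection per cell was also compared without use of the clusters. Cells with at least 3 of the 9 genes were 4.87% of WT (4.32 to 5.47) and 3.55% of KO cells (3.07 to 4.09). They were 8.70% of WT male cells (7.48 to 10.0), 2.31% of WT female cells (1.81 to 2.89), 3.89% of KO female cells (3.29 to 4.57) and 2.06% of KO male cells (1.31 to 3.07). With the aNSC cells left out, a step that does use the clusters, these 4 shares were 1.78%, 1.18%, 1.63% and 1.62%. Of the aNSC cells 94.1% had at least 3 of the genes, so leaving them out lowers the shares by construction. Since no label ties a cell to a mouse, how many of the 5 mice of a pool gave these cells is not known, and sex, mouse and genotype cannot be told apart.

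**Figure D5:**
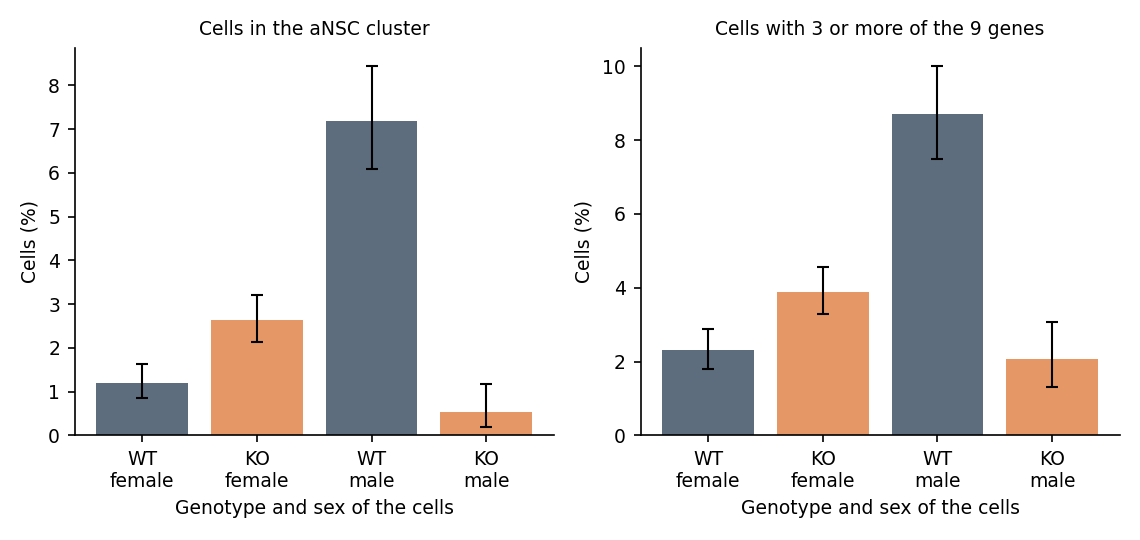
Percent of cells (y axis) in the aNSC cluster (left) and with at least 3 of the 9 genes (right), by genotype and sex of the cells, with exact 95% binomial intervals. WT male cells have the highest share in both panels, 7.19% and 8.70%.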

How the data were processed

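Per the labels and the study's methods, EYFP+ cells were sorted by FACS and sequenced on the 10x Genomics platform, and Cell Ranger 7.0.1 and Seurat 4.1.1 made the values. The methods state limits on detected genes and mitochondrial share and a clustering of both genotypes together. The labels name a human build for these mouse cells, so the build is not known. The authors deposited natural log values (counts scaled to 10,000 UMIs in each cell, plus 1) in 1 table for each of 12 clusters, and 0 columns were left unused.

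UMI counts were recovered from these values, and 100% of 32261786 values above 0 came out whole within 0.02. All deposited cells were used and no doublet caller was run. Levels, shares and log2 ratios (pseudocount 0.01) were computed in Python 3.11.15 with numpy 2.4.6 and scipy 1.17.1. Thinning was to 4500 UMIs, and 620 shallower cells were left out of thinned shares. Cells with UMIs of Xist alone were scored female, and those with UMIs of Ddx3y, Eif2s3y, Uty or Kdm5d alone male. The steps were tested on simulated counts.

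The named genes are the 9 members, the genes of fixed lists, and the 10 genes most like the members. Members and lists were chosen with earlier results of these data known. From the fixed receptor and signalling list, 1 gene is not reported here. For the background shares, a gene needed a level of 0.05 in whichever group was higher. The minimum was first 0.1, and was lowered after 3 members in all cells and 5 in female cells were seen to fall under it. At 0.1, 6 of 6 members passing were lower in KO over all cells (47.8% of genes) and 4 of them at least 1.25-fold (1.12%), and in female cells 4 of 4 were higher (53.7%) and 2 at least 1.25-fold (1.37%). A filter on the higher group favours genes that differ. Positions and transcripts are from GENCODE M21 on GRCm38. Alternatives were other levels, pseudocounts, depths, detection limits, cells and clusters.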

Additional observations from a re-analysis of the deposited data

Results flagged for a closer look

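The log2 KO/WT ratio of the 9 genes over all cells had opposite signs in female and male cells, and this difference was not tested, since each genotype has 1 library. For the 9 summed it was 0.40 in female and −1.36 in male cells. For the antiviral effectors, the female and male ratios were 0.99 and −2.05 for Ifitm3, 0.92 and −2.61 for Ifit2, 0.60 and −2.47 for Ifit3, 0.86 and −2.74 for Oasl2, and 0.18 and −0.60 for Bst2. For the others they were 0.65 and −2.14 for Isg15, 0.82 and −1.96 for Irf7, 0.57 and −2.04 for Usp18, and 0.29 and −1.38 for Ifi27l2a. In the 11 clusters other than aNSC the signs were the same, with summed ratios of 0.09 in female and 0.06 in male cells. The aNSC cluster's share of cells moved with the ratios, from 1.20% in WT to 2.63% in KO female cells and from 7.19% to 0.537% in male cells.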

How the results depend on the processing

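All 9 genes were highest in the aNSC cluster under every alternative run for that count. Summed UMIs over summed totals, a pseudocount of 0.001, and leaving out cells under 2000 genes, the 5% with most genes, or cells with Xist and Y-linked UMIs moved none of the results they were run for beyond its interval, and leaving out the Astrocytes-named cluster moved none of the 4 results it was run for. Shares of cells with at least 3 genes (aNSC 94.1%, other 1.62%, WT 4.87%, KO 3.55%) became 76.8%, 0.678%, 3.41% and 2.37% after thinning, and 65.6%, 0.143%, 2.54% and 1.41% with 2 UMIs for detection. Asking for 2 genes gave 98.4%, 8.92%, 12.2% and 10.6%, and asking for 5 gave 66.9%, 0.0952%, 2.67% and 1.25%. Without Bst2 they were 82%, 0.381%, 3.37% and 1.96%, and the summed log2 ratio over all cells was −0.64. A pseudocount of 1 moved 10 of 20 results, and made that ratio −0.25.

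In female cells the aNSC share was 89.6% and the WT share 2.31%, the summed ratios turned to 0.20 in the aNSC cluster and 0.40 over all cells, and 2 genes in the cluster and 0 over all cells were lower in KO. In the cluster 6 ratios changed sign: Ifitm3 (0.34), Isg15 (0.48) and Bst2 (0.27), whose intervals lay below 0 over both sexes, and Ifit2 (0.77), Irf7 (0.70) and Usp18 (0.13), whose intervals held 0. Over all cells all 9 did: Ifitm3 (0.99), Isg15 (0.65), Ifit2 (0.92), Ifit3 (0.60), Irf7 (0.82), Oasl2 (0.86), Bst2 (0.18), Ifi27l2a (0.29) and Usp18 (0.57). In male cells the shares were 97.2% (aNSC), 8.70% (WT) and 2.06% (KO), and the summed ratio over all cells was −1.36. In the cluster, from 6 KO male cells, Ifi27l2a turned to 0.27, Usp18 to 0.16, Ifit2 to 0.01 and Oasl2 to −1.07. The male intervals of these genes held 0. With equal weight of both sexes, chosen after seeing the data, the summed ratios were −0.06 in the cluster and −0.61 over all cells. Without the aNSC cluster, also added later, the ratio over the remaining cells was 0.08. The cause of these changes was not tested.

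No paired analysis was possible because each genotype has 1 library. Low counts of these genes limit the 11 other clusters, where Ifit2, Ifit3, Irf7, Oasl2 and Usp18 each had under 100 UMIs in either genotype.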

Other observations

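Genes that respond mainly to interferon gamma were also higher in the aNSC cluster: of 13 measured, 12 were at least 2-fold higher, where 2.21% of genes were, and 7 at least 4-fold. Without the 2 KO cells described in the last paragraph, left out after seeing the data, 7 were at least 2-fold and 4 at least 4-fold higher. Of these 13 genes, 5 reached the minimum level only in the aNSC cluster. Within the cluster, those 2 cells kept, 5 of the 13 were lower and 8 higher in KO, where 47.3% of 10522 genes were lower. Nlrc5, a regulator of class I genes, had a level of 0.782 against 0.0445, and Irgm1, an immunity-related GTPase, 1.29 against 0.241. Of the 6 class I presentation genes, H2-K1 had 4.53 against 2.32, B2m 15.4 against 9.22 and Tap1 0.863 against 0.237. Of the feedback genes, Socs1 had 0.254 against 0.0671 and Socs3 0.986 against 1.18.

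Several chemokine and class II values of the KO aNSC cells rest on single cells. A KO cell with 9520 UMIs held 132 of the 136 Cxcl10 UMIs of the KO aNSC cells, 46 of 46 Cxcl9, 40 of 45 Ccl5 and 56 of 82 Rsad2, and had UMIs of 8 of the 9 members. Another, with 4051 UMIs, held 62 of 85 Cd74, 34 of 39 H2-Aa and 23 of 33 H2-Ab1 UMIs, and had UMIs of all 9 members. The log2 KO/WT ratios of Cxcl10 (2.05) and Cd74 (2.20) in the cluster therefore rest mainly on 1 cell each. Without both cells, the aNSC levels were 0.433 for Cd74, 0.0547 for H2-Aa, 0.137 for H2-Ab1 and 0.00457 for Cxcl9, against 0.238, 0.0302, 0.0864 and 0.000684 in the other clusters. The counts of the further type I genes (35 and 30) and of the 9 genes (9 and 9) were the same without them.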
